A study of Danio rerio with 12 samples.

Results

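BCL2 family proteins set the threshold for apoptosis at the mitochondrial outer membrane, and 10 of their genes were followed across zebrafish brain libraries. They were taken by symbol, ignoring case, from a table of 32105 genes: the BH3-only genes bbc3, bcl2l11, bmf1, bmf2 and pmaip1, the pro-survival genes mcl1a, mcl1b and bcl2a, and the effector genes baxa and baxb. All 10 had a row, and baxa, listed as BAX, was paired through a synonym. The series sequenced RNA from whole brains of 6-month-old male fish as 12 libraries. There were 4 of wild type, 4 of the transgenic strain actb1::miR-29sponge and 4 of kif5a::miR-29sponge, called the actb1 line and the kif5a line here. The promoter that names a strain is that of a broadly used cytoplasmic actin gene in the first and of a neuronal kinesin gene in the second. The sources used here do not give whether a line rests on 1 insertion, or whether a library is 1 brain or a pool.

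In this family, proteins such as Bcl2 and Mcl1 hold the pore-forming effector Bax in check. BH3-only proteins are made or activated under stress, bind the pro-survival members and release Bax, after which cytochrome c leaves the mitochondria and caspases are activated. miR-29 rises as neurons mature, and in mouse neurons it was reported to repress BH3-only genes, among them those for Bim (bcl2l11), Puma (bbc3) and Bmf. Sponge RNAs carry sites that a microRNA binds, and so compete with its own targets. The comparison of each line with wild type therefore asks whether transcripts of this family differed where miR-29 was to be sequestered.

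Library totals ran from 20884576 to 33573243 counts. Neuronal markers were present throughout (the main SNAP25 gene at 2471 to 3984 CPM, counts scaled to library size by TMM). Rod photoreceptor genes stood out in 5 sponge libraries (actb1 sponge 1, 2 and 3, kif5a sponge 2 and 3), with GNAT1 at 38.5 to 80.3 CPM against 0.267 to 2.52 CPM in the other 7. A list of 20 microglia and macrophage genes summed to 2044 to 2788 CPM in wild type 2 and 4 and actb1 sponge 3 and 4, and to 1014 to 1336 CPM in the other 8. In bulk tissue, fewer cells of a type and less RNA per cell cannot be told apart.

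The family's levels in wild-type brain differed widely per transcript length. mcl1a led at 47.1 ± 17.9 RPKM (reads scaled to gene length and library size, recomputed; SD, n = 4), followed by baxa at 13.2 ± 1.57 and mcl1b at 12.6 ± 1.75 RPKM, which overlapped. bmf2 (4.41 ± 0.384 RPKM) and bcl2a (4.14 ± 0.602 RPKM) overlapped as well. Below them came baxb at 2.46, bbc3 at 2.29, pmaip1 at 1.87, bcl2l11 at 1.004 and bmf1 at 0.659 RPKM, each overlapping its neighbour in this order. In both sponge lines mcl1a, baxa and mcl1b again held the top of the order, at 43.2, 11.5 and 9.79 RPKM in the actb1 line and at 29.6, 11.7 and 10.97 RPKM in the kif5a line. bcl2a stood above bmf2 in both lines (4.54 against 2.92, and 5.37 against 3.72 RPKM). The wild-type means had the reverse order, but the libraries were mixed, with bcl2a above bmf2 in wild type 1 and 4. The coefficient of variation over the 12 libraries was lowest for baxa (11.9%) and highest for bmf1 (78.8%) and pmaip1 (73.1%).

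**Figure D1:**
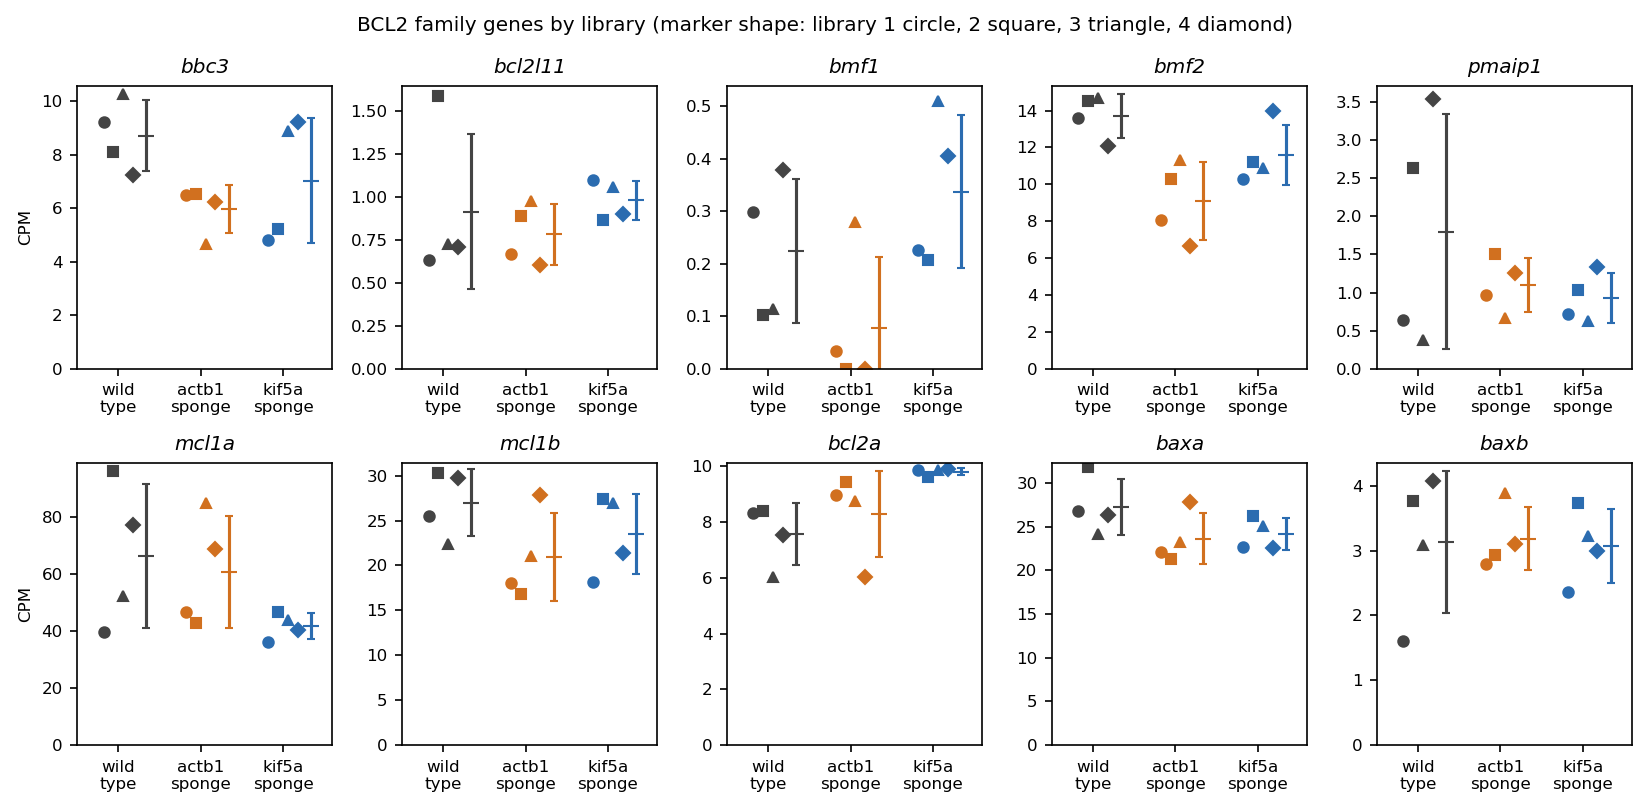
Normalised CPM of the 10 BCL2 family genes in each library, by group (4 libraries each; the dash and bar at the right of a group are its mean ± SD, cut at 0). All 4 actb1 libraries lie below wild type for bmf2 and bbc3, and all 4 kif5a libraries lie above wild type for bcl2a.

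No BH3-only gene was called higher in the actb1 line, and the pair with the smallest p, bmf2 and bbc3, stood lower there without passing the test. bmf2, the zebrafish paralogue of Bmf with the most reads, stood at 13.6, 14.5, 14.7 and 12.1 CPM in wild type 1 to 4, at 8.05, 10.3, 11.3 and 6.66 CPM in actb1 sponge 1 to 4, and at 10.3, 11.2, 10.9 and 13.96 CPM in kif5a sponge 1 to 4. Every actb1 library was below every wild-type library, while the kif5a libraries overlapped both groups. The log2 difference in the actb1 line was -0.59 ± 0.17 (SE; 95% interval -0.96 to -0.23) and did not pass the test (edgeR quasi-likelihood, Benjamini-Hochberg adjusted p = 0.118). DESeq2 called it at an adjusted p of 0.0313. Over 20 alternative settings the value lay between -0.99 and -0.47, with adjusted p from 0.0313 to 0.326. As the libraries did not overlap, leaving some out could not turn its sign. The value of -0.99 came without the 5 libraries high in GNAT1, which left only actb1 sponge 4 of that line. In the kif5a line the difference was -0.24 ± 0.17 (-0.61 to 0.12).

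bbc3 encodes Puma, which binds all main pro-survival members in mammals and is induced by p53. Its levels were 9.24, 8.10, 10.3 and 7.25 CPM in wild type 1 to 4, 6.49, 6.53, 4.67 and 6.22 CPM in the actb1 libraries, and 4.82, 5.22, 8.87 and 9.22 CPM in the kif5a libraries. All 4 actb1 libraries were again below wild type, and the kif5a libraries split, with sponge 1 and 2 below and sponge 3 and 4 within the wild-type range. The log2 difference was -0.55 ± 0.23 in the actb1 line (95% interval -1.04 to -0.06; edgeR adjusted p = 0.250) and -0.31 ± 0.22 in the kif5a line (-0.80 to 0.18; adjusted p = 0.666). Neither was called. Over 20 alternative settings the actb1 value ran from -0.71 to -0.43. Its adjusted p was 0.193 by DESeq2 and 0.244 to 0.419 by edgeR with each library left out in turn. Without wild type 1, wild type 3 or actb1 sponge 3, its unadjusted edgeR p was no longer under 0.05. Here too, leaving libraries out could not turn the sign, as they did not overlap.

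The other BH3-only genes had few reads. bcl2l11, which encodes Bim, a main killer of neurons deprived of trophic support in mammals, had 15 to 47 counts per library. It stood at 0.915 ± 0.453 CPM in wild type, 0.784 ± 0.177 in the actb1 and 0.982 ± 0.115 in the kif5a line, and the groups overlapped. Wild type 2 alone was at 1.59 CPM, against 0.633 to 0.724 in the other 3. It set the direction in the actb1 line, where the difference was -0.23 ± 0.33 with it and 0.19 without it. The kif5a difference was 0.09 ± 0.33 with it and 0.51 without it. Without wild type 1, 3 or 4, the kif5a difference was -0.050, -0.0067 or -0.0076. The 95% intervals with all libraries, -0.94 to 0.49 and -0.62 to 0.80 on the log2 scale, include changes of either sign. They end short of a 2-fold change, but only just in the actb1 line, where the difference was -0.37 ± 0.34 without wild type 1. With so few counts a 2-fold change is not taken as excluded.

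bmf1, the other Bmf paralogue, gave 8, 3, 3 and 8 counts in wild type, 1, 0, 10 and 0 in the actb1 line and 7, 6, 13 and 13 in the kif5a line. It missed the filter on low counts and was not tested with the other 9. A count of 0 allows up to 0.116 CPM in actb1 sponge 2 and 0.121 CPM in actb1 sponge 4 (3 counts, counting error only). Fitted without the filter, bmf1 differed by -1.25 ± 0.90 in the actb1 and 0.62 ± 0.81 in the kif5a line (edgeR adjusted p = 0.538 and 0.842).

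pmaip1 encodes Noxa, which in mammals binds Mcl1 above all. It stood at 0.633, 2.64, 0.381 and 3.55 CPM in wild type, 0.965, 1.51, 0.670 and 1.25 CPM in the actb1 line and 0.711, 1.04, 0.628 and 1.34 CPM in the kif5a line. Wild type 2 and 4 stood above all 8 sponge libraries, and wild type 1 and 3 were at or near the bottom of the order. The log2 differences were -0.71 ± 0.59 and -0.94 ± 0.59 (edgeR adjusted p = 0.557 and 0.611). Without wild type 2 and 4, left out after the values were seen, they turned to 1.098 and 0.87. Leaving out the highest libraries could only raise the differences, so this turn does not test the direction.

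Among the pro-survival genes, mcl1a was lower in the kif5a libraries than in most others without passing the test. Mcl1 is a short-lived protein that many cell types, blood cells among them, need to survive. mcl1a stood at 39.8, 96.2, 52.3 and 77.1 CPM in wild type, 46.8, 42.9, 84.8 and 68.7 CPM in the actb1 line and 36.1, 46.6, 43.9 and 40.4 CPM in the kif5a line. The groups overlapped, and the 4 kif5a libraries lay close together at the low end. The kif5a difference from wild type was -0.67 ± 0.27 (95% interval -1.25 to -0.09; edgeR adjusted p = 0.369), and that of the actb1 line -0.12 ± 0.27 (adjusted p = 0.842). The 4 libraries highest in mcl1a (wild type 2 and 4, actb1 sponge 3 and 4) were also the 4 highest in the summed microglia and macrophage genes, of which 1 of 20 had no count in 11 libraries. Wild type 2 and 4 were also the highest in pmaip1, whereas actb1 sponge 3, highest of all in the microglia sum, stood ninth in pmaip1. That top place held for the sum only. By the list's mean log2 level against wild type, actb1 sponge 3 (0.25) was below wild type 4 (0.76), wild type 2 (0.63) and actb1 sponge 4 (0.33). In mcl1a, wild type 2 and 4 were the highest wild-type libraries. Without them its kif5a difference was -0.14 and its actb1 difference 0.40. Leaving them out could only raise both values, and actb1 sponge 3 and 4 stayed in. By Pearson's r over the 12 libraries, mcl1a rose with the mean log2 level of the microglia list (0.91) and fell with that of the neuron list (-0.81). These were the highest and lowest r over all tested members and cell type lists. With the microglia list, r was also positive for pmaip1 (0.76), baxb (0.69), baxa (0.55), mcl1b (0.55) and bcl2l11 (0.15). It was negative for bbc3 (-0.19), bmf2 (-0.13) and bcl2a (-0.30). The part of either cell type in the result was not tested.

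**Figure D2:**
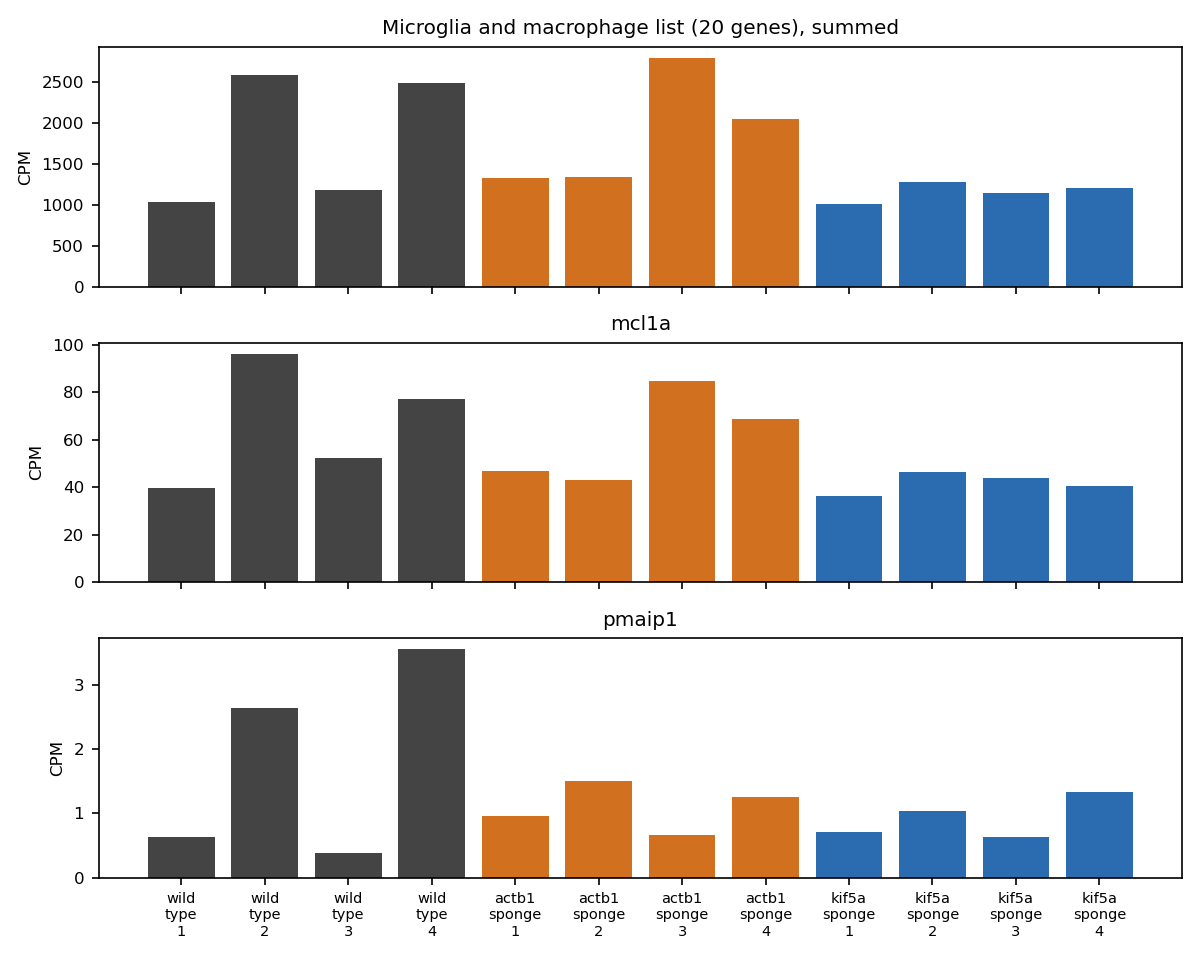
Summed CPM of 20 microglia and macrophage genes (top), and CPM of mcl1a (middle) and pmaip1 (bottom), in each of the 12 libraries, coloured by group. mcl1a and the marker sum are highest in the same 4 libraries, and pmaip1 is highest in wild type 2 and 4.

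mcl1b, the second Mcl1 gene, varied less. It stood at 27.0 ± 3.74 CPM in wild type, 21.0 ± 4.92 in the actb1 and 23.5 ± 4.47 in the kif5a line. Its groups overlapped, with log2 differences of -0.37 ± 0.18 and -0.20 ± 0.18 (edgeR adjusted p = 0.327 and 0.755). Without the 5 libraries high in GNAT1, which left 1 actb1 library, the actb1 difference was 0.10.

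bcl2a, a zebrafish Bcl2 gene, was the member with the least spread in the kif5a line. It stood at 8.31, 8.40, 6.02 and 7.53 CPM in wild type, 8.98, 9.42, 8.77 and 6.02 CPM in the actb1 line and 9.86, 9.62, 9.85 and 9.91 CPM in the kif5a line. Every kif5a library was above every library of the other groups. The log2 difference from wild type was 0.37 ± 0.16 (95% interval 0.04 to 0.71) and was not called (edgeR adjusted p = 0.389). Between the lines it was 0.24 ± 0.16 (adjusted p = 0.466), and the actb1 line differed from wild type by 0.13 ± 0.16 (adjusted p = 0.689).

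Neither effector gene was called. baxa, which encodes Bax, stood at 27.3 ± 3.23 CPM in wild type, 23.6 ± 2.91 in the actb1 and 24.2 ± 1.7996 in the kif5a line. The log2 differences were -0.21 ± 0.12 and -0.18 ± 0.11 (edgeR adjusted p = 0.378 and 0.624), and the 95% intervals, -0.46 to 0.04 and -0.42 to 0.07, exclude a 2-fold change in either direction. baxb, the rarer Bax gene, stood at 3.13 ± 1.099, 3.18 ± 0.486 and 3.08 ± 0.571 CPM, with differences of 0.03 ± 0.27 and -0.02 ± 0.27. How reads shared between such paralogues were counted is not given, so their levels are uncertain to that extent.

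**Figure D3:**
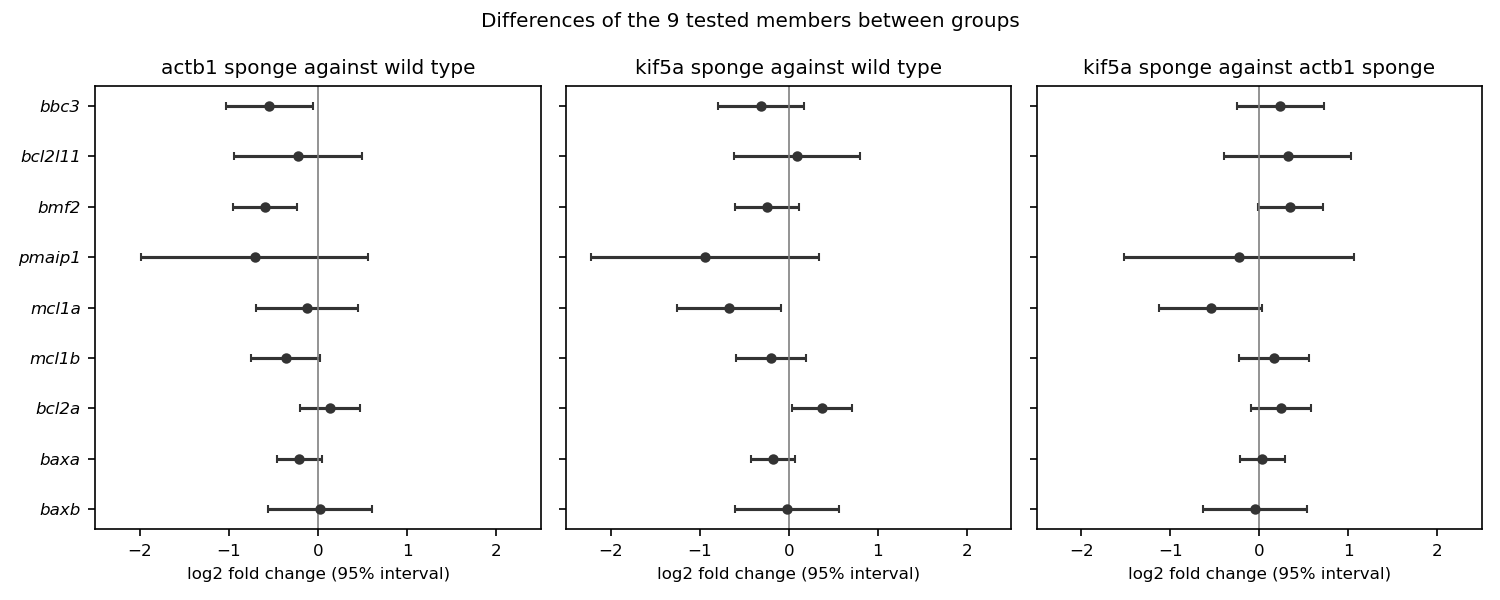
Log2 fold change and 95% interval (unadjusted, edgeR) of the 9 tested members in each comparison. In the actb1 line the intervals of bmf2 and bbc3 lie below 0, and in the kif5a line that of mcl1a lies below and that of bcl2a above 0.

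In all, 9 of the 10 genes passed the filter, and 0 of the 9 were called in the actb1 line (edgeR quasi-likelihood, Benjamini-Hochberg adjusted p under 0.05), where 0.738% of 19645 tested genes were called. DESeq2 called 1, bmf2, beside 934 over all genes, and voom 0, beside 91. Unadjusted p was under 0.05 for 2 members, bmf2 and bbc3, against 16.7% of all tested genes, and the same 2 genes had libraries that did not overlap, against 9.33% of all. In the kif5a line edgeR, DESeq2 and voom called 0 of 9, against 0.534% of all genes by edgeR. There 2 members, mcl1a and bcl2a, had an unadjusted p under 0.05, against 11.3% of all, and 1, bcl2a, did not overlap, against 9.24%. Both comparisons use the same wild-type libraries. The median log2 difference of the 9 was -0.23 in the actb1 and -0.20 in the kif5a line, against -0.03 and -0.01 for all genes. Of the 9, 7 were negative in each, against 53.9% and 51.1% of all genes. Wild type 2 and 4 were left out together only after the values were seen. They were the highest wild-type libraries in pmaip1, mcl1a, mcl1b and baxb, so for these genes the differences could only rise. With both left out, the actb1 differences of bcl2l11 (0.21), pmaip1 (1.098) and mcl1a (0.40) turned positive. Among the kif5a differences, those of pmaip1 (0.87) and baxb (0.39) did. bbc3, bmf2, mcl1b and baxa stayed negative for either line. In bbc3, wild type 2 and 4 were the lowest wild-type libraries, so its differences could only fall. bmf2 did not overlap wild type in the actb1 line, so its sign there was fixed as well.

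The lines were also compared with each other. Of the 9 members 0 were called by edgeR, DESeq2 or voom (1.18% of all genes were called by edgeR), and 0 had an unadjusted p under 0.05, against 16.2% of all. bmf2 was higher in the kif5a than in the actb1 line by 0.35 ± 0.17 (95% interval -0.01 to 0.71; edgeR adjusted p = 0.327) and mcl1a lower, with -0.54 ± 0.27 (-1.12 to 0.03; adjusted p = 0.339). bcl2a was the 1 member without overlap, against 10.4% of all genes, and 3 of 9 were negative, against 49.4%.

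bmf2 had the smallest p of the family, and the genes most like it over the 12 libraries were looked up among 19644 others by Pearson's r of log2 CPM. They were znf1175 (r = 0.92, Spearman's rho = 0.92), the unnamed ENSDARG00000089947 (0.89 and 0.85), si:dkey-21c1.8 (0.89 and 0.83), CAMK1 (0.89 and 0.89) and brms1la (0.87 and 0.89). These are the highest of many values, over libraries that share their groups, and are given as a description.

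Other apoptosis genes were read from lists of 107 symbols, of which 91 matched. They gave 100 genes besides the members, 11 of them named HTRA2, and 86 were tested. By edgeR 1 was called in the actb1 line, tnfrsf1b, which fell, and 0 were called in the kif5a line, while 13 and 12 had an unadjusted p under 0.05. Over all tested genes, edgeR called 0.738% and 0.534%, and unadjusted p was under 0.05 for 16.7% and 11.3%, so the counts of the 86 lay near the background. DESeq2 called 5 and 1 of the 86, beside 934 and 437 over all genes. The median log2 difference of the 86 was -0.06 and -0.07, against -0.03 and -0.01 for all genes.

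A second Bcl2 gene stood higher in the kif5a line than in wild type without passing the main test. BCL2 (ENSDARG00000089109) stood at 134, 160, 146 and 139 CPM in wild type, 173, 200.1, 70.7 and 176 CPM in the actb1 line and 201, 213, 207 and 195 CPM in the kif5a line. As for bcl2a, every kif5a library was above every wild-type library. Of all tested genes, 9.24% did not overlap in that comparison. actb1 sponge 3, the library lowest in BCL2, was also lowest in the summed neuronal markers (6270 CPM against 7884 to 9206 in the other 11). The kif5a difference was 0.49 ± 0.23 and was not called (edgeR adjusted p = 0.455). It was called without actb1 sponge 3 (0.50, adjusted p = 0.00985) and with only the compared groups fitted (0.49, adjusted p = 0.0154); adjusted p ran up to 0.682 with other libraries left out. The actb1 difference was 0.10 ± 0.23. The list kept for other pro-survival genes had 7 tested: BCL2, BCL2L1, bcl2l10, bcl2l12, bcl2l13, BAG3 and bag1. Of these 7 genes 0 were called by edgeR in either line. Unadjusted p was under 0.05 for 0 of them, against 16.7% and 11.3% of all tested genes. Their median was -0.014 and -0.027, against -0.03 and -0.01 for all, and bcl2l10 differed by -0.14 ± 0.14 and -0.22 ± 0.14.

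Of 9 other pro-apoptotic family genes 0 were called in either line by edgeR (0.738% and 0.534% of all tested genes were), with 3 and 4 at an unadjusted p under 0.05, against 16.7% and 11.3% of all. BNIP3L (ENSDARG00000028067), a mitophagy receptor related to the BH3-only proteins, stood at 93.9 ± 4.14 CPM in wild type, 69.8 ± 12.6 in the actb1 and 70.0 ± 7.79 in the kif5a line. All 8 sponge libraries lay below wild type, with log2 differences of -0.43 ± 0.13 and -0.42 ± 0.13 (edgeR adjusted p = 0.129 and 0.238). DESeq2 called the first (adjusted p = 0.0451). Of all tested genes, 9.33% and 9.24% had libraries that did not overlap in the actb1 and kif5a lines. A second BNIP3L gene (ENSDARG00000025468) overlapped wild type in both, with -0.12 ± 0.20 in each (edgeR adjusted p = 0.799 and 0.897). BOK (ENSDARG00000052129), a Bax-like effector gene, stood at 30.6 ± 2.54, 29.2 ± 2.90 and 21.6 ± 3.16 CPM. All 4 kif5a libraries were below wild type, by a log2 difference of -0.50 ± 0.12 (edgeR adjusted p = 0.114; DESeq2 adjusted p = 0.00780), and below the actb1 line by -0.43 ± 0.12 (0.103 and 0.0184). The median log2 difference of the 9 genes was -0.12 in each line, against -0.03 and -0.01 for all genes.

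Of 19 tested mitochondrial and caspase genes, AIFM1, ENDOG and the VDAC channels among them, 0 were called in either line by edgeR. For 4 and 2 of the 19 unadjusted p was under 0.05, near the 16.7% and 11.3% of all tested genes. Their median log2 difference was 0.0055 and -0.0040, against -0.03 and -0.01 for all. AIFM1, the mitochondrial apoptosis-inducing factor, stood at 47.2 ± 2.099, 57.5 ± 4.74 and 55.04 ± 2.601 CPM. All 8 sponge libraries were above wild type, with log2 differences of 0.28 ± 0.08 and 0.22 ± 0.08 (edgeR adjusted p = 0.117 and 0.312). DESeq2 called it in the actb1 line (adjusted p = 0.0145). Libraries did not overlap for 9.33% and 9.24% of all tested genes in the actb1 and kif5a lines. The share for both lines together was not computed.

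Of 19 genes of the p53 pathway, which induces bbc3 and pmaip1 in mammals, 0 were called in either line by edgeR, with 3 and 4 at an unadjusted p under 0.05, against 16.7% and 11.3% of all tested genes. The list had a median of -0.035 and -0.12, against -0.03 and -0.01 for all. cdkn1a, the cell cycle inhibitor p21 and a standard p53 target, stood at 0.708, 0.982, 0.496 and 0.616 CPM in wild type, below every actb1 library (1.31 to 1.94 CPM). It differed by 1.28 ± 0.29 in the actb1 line (edgeR adjusted p = 0.0739; DESeq2 adjusted p = 0.00755) and 0.68 ± 0.29 in the kif5a line (edgeR adjusted p = 0.410). In the actb1 line 9.33% of all tested genes did not overlap wild type. SESN1, a stress-induced p53 target, differed by -0.06 ± 0.13 and -0.41 ± 0.14 (edgeR adjusted p = 0.850 and 0.277), and its kif5a difference was called without actb1 sponge 3 (-0.40, adjusted p = 0.0324).

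The single call among these lists was in the death receptor pathway, where 11 genes were tested. tnfrsf1b, a receptor for tumour necrosis factor, fell in the actb1 line. It stood at 2.09, 11.3, 4.50 and 4.12 CPM in wild type, 0.931, 1.20, 1.56 and 0.565 CPM in the actb1 line and 3.52, 4.50, 4.91 and 5.89 CPM in the kif5a line. The actb1 libraries lay below all others, by a log2 change of -2.36 ± 0.47 from wild type (edgeR adjusted p = 0.0421) and with the kif5a line higher than the actb1 line by 2.13 ± 0.46 (adjusted p = 0.0491). With each library left out in turn, either call remained in 2 of 12 fits, the first without wild type 1 or 3 and the second without wild type 1 or 2. Without wild type 2, at 11.3 CPM the highest library, the actb1 difference was -1.73 (edgeR adjusted p = 0.0644). Wild type 2 had the second highest microglia sum (2589 CPM). At 2788 and 2044 CPM of that sum, actb1 sponge 3 and 4 had 1.56 and 0.565 CPM of tnfrsf1b. The part of these cells in the tnfrsf1b difference was not tested. cflara, an inhibitor of caspase-8 activation, differed by -0.47 ± 0.24 and -0.55 ± 0.24 (edgeR adjusted p = 0.344 and 0.418). Unadjusted p was under 0.05 for 2 of the 11 genes in the actb1 line and for 1 in the kif5a line, near the 16.7% and 11.3% of all tested genes. The median of the 11 was -0.15 and -0.39, against -0.03 and -0.01 for all.

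Of 21 regulators in the FOXO, JNK and endoplasmic reticulum stress pathways, which switch on BH3-only genes in mammals, 0 were called in either line by edgeR and 1 had an unadjusted p under 0.05 in each, below the 16.7% and 11.3% of all tested genes. Their median was -0.17 and 0.050, against -0.03 and -0.01 for all. FOXO4 differed by -0.26 ± 0.13 and -0.36 ± 0.13, with all 8 sponge libraries below wild type (edgeR adjusted p = 0.346 and 0.336). Of all tested genes, 9.33% and 9.24% did not overlap in the actb1 and kif5a lines. ATF3, a stress-induced transcription factor, stood at 3.28, 6.47, 2.97 and 8.05 CPM in wild type, high in libraries 2 and 4 as pmaip1 was, and at 2.37 to 3.31 and 3.43 to 4.46 CPM in the actb1 and kif5a lines. It differed by -0.87 ± 0.29 and -0.41 ± 0.29 (edgeR adjusted p = 0.174 and 0.662).

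**Figure D4:**
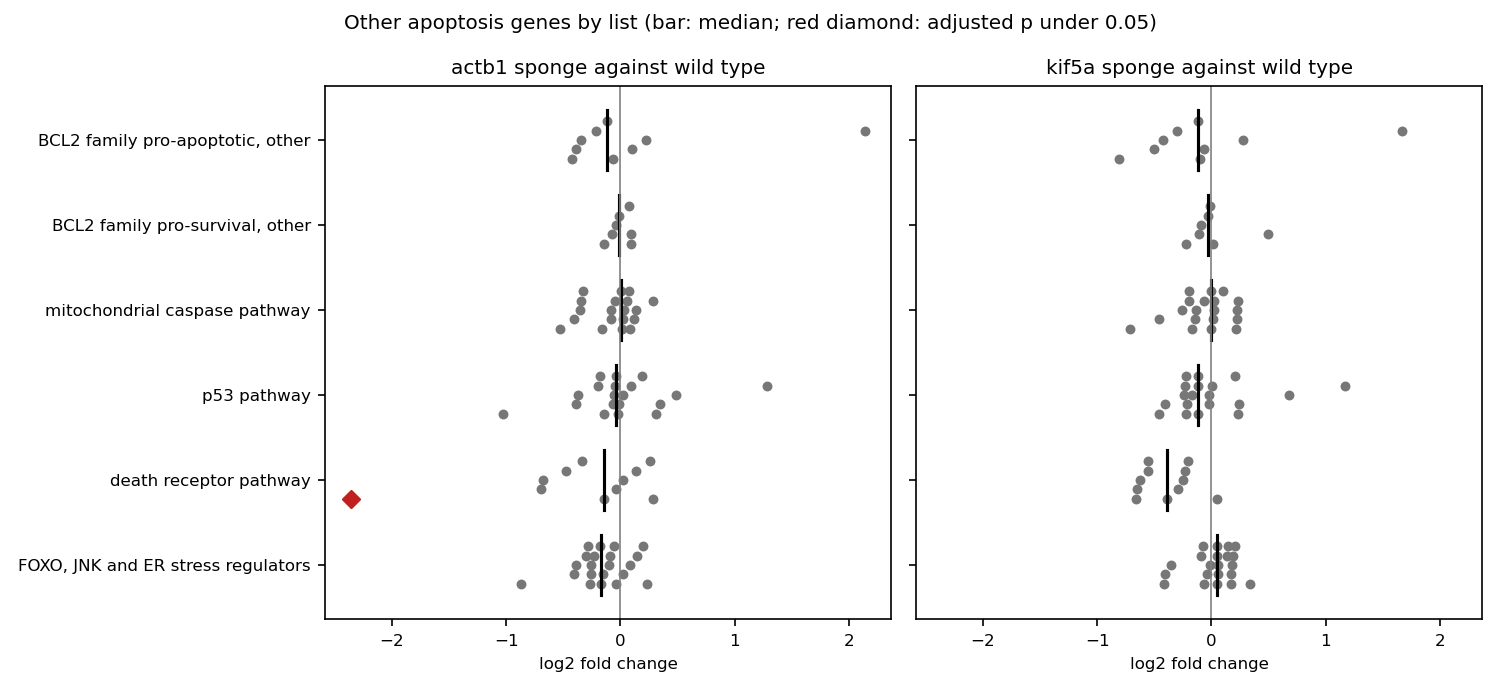
Log2 fold change of the 86 tested apoptosis genes outside the members, by list, in each line against wild type. Points are genes, the black bar is the list's median, and the red diamond is the 1 called gene, tnfrsf1b.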

How the data were processed

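Whole-number read counts per gene were deposited by the authors and entered every test. The authors also deposited RPKM values, but their count to RPKM ratio follows the 12 library totals recycled down the genes (median coefficient of variation within a gene 1.48e-05 over 6540 genes, against 0.179 with each library's own total), so they served only to recover gene lengths. The submitters' processing notes name build GRCz10 and the tools STAR 2.4.1d, featureCounts 1.4.6-p4 and bcl2fastq 1.8.4, with no annotation release given here. The TruSeq kit, version 2, named in the labels' protocols does not mark strand, so overlapping antisense reads cannot be told apart.

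Of 32105 gene identifiers, 26269 (81.8%) had a symbol. Human-style symbols were used for list genes without a zebrafish one. Genes over 0.5 CPM in at least 4 libraries (19645) were fitted in 1 model of all 12 libraries with TMM scaling and edgeR's quasi-likelihood test (version 4.0.16, R 4.3.3), adjusted over all genes by Benjamini-Hochberg and called at 0.05. Standard errors come from the log2 fold change and the test statistic, and 95% intervals are unadjusted. Groups follow the strain label; libraries are numbered in accession order. The labels do not say that libraries come from separate fish, so p-values measure the spread between libraries, which may be technical.

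The members and lists were chosen with earlier results of these data known. The text names all members, every called list gene, the 2 list genes of smallest p over the comparisons with wild type, and the 5 genes most like the member of smallest p. A gene that this rule names is not reported here. The test was run on simulated data for actb1 against wild type (19645 genes): of true 1.5-fold changes 14.9% were recovered, of 2-fold changes 50%, and of 4-fold changes 85.5%, beside 5 false calls. Alternatives were DESeq2 1.42.0, voom of limma 3.58.1, RLE size factors, other filters, the compared groups alone, each library left out and, chosen after seeing the data, sets of libraries left out. No mature miRNA, promoter or protein sequences were used here.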

Additional observations from a re-analysis of the deposited data

Results flagged for a closer look

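Of 66 groups of 4 libraries (10 members and 12 list genes in 3 groups), 5 held a library far from the other 3, where chance flags about 1 in 20. bbc3 was lowest in actb1 sponge 3 at 4.67 CPM, against 6.22 to 6.53 CPM in the other actb1 libraries. bcl2l11 was highest in wild type 2 at 1.59 CPM, against 0.633 to 0.724 CPM. bmf1 was highest in actb1 sponge 3 at 0.279 CPM, against 0 to 0.0333 CPM. BOK (ENSDARG00000052129) was highest in actb1 sponge 4 at 33.5 CPM, against 27.4 to 28.0 CPM. SESN1 was highest in actb1 sponge 3 at 119 CPM, against 77.2 to 77.8 CPM. The difference between the lines passed the test for tnfrsf1b, higher in the kif5a line by 2.13 on the log2 scale (edgeR adjusted p = 0.0491).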

How the results depend on the processing

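The 0 members called in each comparison held in all settings run except DESeq2, which called 1 in the actb1 line; with each library left out the range was 0 to 0. Called list genes numbered 5 by DESeq2, 0 by voom, 0 with only the compared groups and 0 to 1 with a library left out in the actb1 line (1 in the report). They numbered 1, 0, 1 and 0 to 2 in the kif5a line, and 7 by DESeq2, 0 by voom, 0 without a filter, 0 at 2 CPM and 0 to 1 with a library left out between the lines. All called genes numbered 934 by DESeq2, 91 by voom, 83 with only the compared groups and 38 to 243 with a library left out (actb1 sponge 2 and wild type 3) in the actb1 line. They were 437 by DESeq2 and 33 to 150 (kif5a sponge 1 and actb1 sponge 3) in the kif5a line, and 950 and 93 to 250 (actb1 sponge 1 and wild type 3) between the lines. Of 534 alternative values of the members' log2 differences, 506 kept direction and call, 1 (bmf2 by DESeq2) gained the call and 27 turned, none of them a called value.

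With a library left out, the turning members ranged in the actb1 line from -0.37 to 0.19 (bcl2l11), -0.31 to 0.11 (mcl1a) and -0.19 to 0.17 (baxb), in the kif5a line from -0.050 to 0.51 (bcl2l11) and -0.24 to 0.13 (baxb), and between the lines from -0.026 to 0.12 (baxa) and -0.16 to 0.055 (baxb). Without wild type 2 and 4, actb1 values turned to 0.21 (bcl2l11), 1.098 (pmaip1) and 0.40 (mcl1a), and kif5a values to 0.87 (pmaip1) and 0.39 (baxb). Without the 5 libraries high in GNAT1, actb1 values turned to 0.10 (mcl1a), 0.096 (mcl1b), -0.28 (bcl2a) and 0.079 (baxa), and values between the lines to -0.53 (mcl1b) and -0.34 (baxa). By voom the kif5a value of baxb was 0.045. Among list genes, BCL2 in the actb1 line ranged from -0.030 to 0.35 with a library left out and was -0.0048 by voom. SESN1 there ranged from -0.22 to 0.018, tnfrsf1b in the kif5a line from -0.50 to 0.40, and between the lines BNIP3L from -0.12 to 0.092 (-0.018 without a filter) and cflara from -0.17 to 0.034. The cause was not tested. No paired analysis was possible because the labels carry no replicate numbers. Depth limits bmf1 most, with 0 to 13 counts per library.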

Other observations

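A second BOK gene (ENSDARG00000008807), chosen after its values were seen, had 3 to 8 counts in wild type. It stood at 0.898, 0.656, 1.90 and 0.121 CPM in actb1 sponge 1 to 4 and at 0.0647, 1.07, 1.26 and 0.249 CPM in kif5a sponge 1 to 4, against 0.135 to 0.298 CPM in wild type. The 5 libraries above 0.6 CPM were the 5 high in the rod gene GNAT1. This BOK gene passed the filter of 0.5 CPM in at least 4 libraries only through these 5 sponge libraries. The filter thus favoured a positive difference from wild type. Its log2 differences, 2.14 ± 0.86 and 1.67 ± 0.87, were the most positive of the lists and were not called (edgeR adjusted p = 0.239 and 0.507). For that reason their sign and rank are not read as a result.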
